A study of Mus musculus with 30 samples.

Results

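The 85 genes described here are neighbours of Tmem106b on mouse chromosome 6. They are the rows of the deposited expression table that start within about 10 Mb of it on either side and whose mean over the 30 brains was above 0 on the deposited log2 scale, without Tmem106b itself and without Tac1, Col1a2 and Ndufa4. The table has 34871 rows, of which 23695 passed the same filter and were tested. The window held 144 rows, 89 of them above the filter, and the genes kept start between 3372257 (Samd9l) and 23072173 (Aass) on mm10. Bulk brain RNA was sequenced from 30 mice aged 8 months, 10 with both Tmem106b copies (Tmem106b +/+, WT), 10 heterozygous for the targeted allele (Tmem106b +/-, HET) and 10 homozygous for it (Tmem106b -/-, KO). RNA came from the cerebral hemispheres of all animals in a single extraction. Each genotype had 6 mice of cohort 1 and 4 mice of cohort 2, with as many females as males in each. The sources used here do not name the mouse strain, the way the allele was made or the meaning of the cohorts.

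Tmem106b encodes a membrane protein of late endosomes and lysosomes and is known in people as a risk locus for frontotemporal dementia. When a targeted allele is bred in mice, the DNA on either side of it is inherited with it, so that genes near the target can carry sequence from the strain in which the allele was made, called passenger DNA. A deletion can also remove or bring together control elements of adjacent genes. The proximal end of the window contains an imprinted domain, in which Peg10 and Sgce are transcribed from the paternal copy. The genotype of the flanking DNA and the targeting of Tmem106b cannot be told apart in these 30 mice, because the genotype label covers both.

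The targeted gene, at chr6:13069759-13089269 on the plus strand (mm10), had mean levels of 9.17 in WT, 8.58 in HET and 7.53 in KO brains. These levels are log2 RPKM, reads scaled to gene length and library size, after the authors' conditional quantile normalisation (cqn). The KO difference was -1.64 on the log2 scale (limma, adjusted p = 3.51e-27). KO brains thus kept 32.0% of the WT level (95% interval 30.9% to 33.3%), and the table does not show which part of the transcript that is. Its promoter and those of the nearest called neighbour, Thsd7a, and of the nearest protein-coding neighbour above the filter on the other side, Tmem168, are shown because these 3 start sites frame the interval on which the comparison turns. They are RefSeq promoters on GRCm38.p6, given 5′ to 3′ on the gene's own strand and limited to bases outside the gene's span in the deposited table. The stretches are chr6:13069509-13069758 (plus strand) for Tmem106b, chr6:12749411-12749503 (minus strand) for Thsd7a and chr6:13608101-13608348 (minus strand) for Tmem168. Capitals mark a CCAAT box in Thsd7a and a TATAAA match in Tmem168, each read on the opposite strand.
Tmem106b: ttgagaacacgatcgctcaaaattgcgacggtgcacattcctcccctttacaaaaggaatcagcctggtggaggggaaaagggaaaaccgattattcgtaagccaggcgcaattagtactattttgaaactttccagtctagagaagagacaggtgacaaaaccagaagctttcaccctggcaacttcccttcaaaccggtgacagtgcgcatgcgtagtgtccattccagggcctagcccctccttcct
Thsd7a: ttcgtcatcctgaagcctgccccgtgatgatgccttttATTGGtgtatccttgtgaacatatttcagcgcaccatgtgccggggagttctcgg
Tmem168: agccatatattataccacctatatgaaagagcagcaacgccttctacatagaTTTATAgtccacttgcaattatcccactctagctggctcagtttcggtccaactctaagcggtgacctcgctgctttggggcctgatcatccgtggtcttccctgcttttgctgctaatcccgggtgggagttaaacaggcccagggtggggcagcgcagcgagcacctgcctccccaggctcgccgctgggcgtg

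The search covered both strands of the 250 bases before each start, and the 4 motifs do not contain one another. The E-box core CACGTG was in none of the 3 promoters and in 6.02% of 32851 RefSeq promoters. TATAAA was found once in Tmem168 and in 12.4% of all promoters. CCAAT was found once in Thsd7a and in 33.8% of all promoters, and the GC box GGGCGG once in Thsd7a, outside the printed bases, and in 32.7% of all promoters. The 250 bases held 10 CpG dinucleotides in Tmem106b, 15 in Thsd7a and 11 in Tmem168. Over the 59 promoters matched to 47 of the 85 genes the median was 11 CpG, against 6 over all promoters. The 85 genes were filtered by level and the set of all promoters was not, so the sets are unlike. The CpG medians are a description of the matched promoters, with no test.

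Of the 85 genes, 54 were protein coding in GENCODE M21, 28 were of another type, such as antisense transcripts, misc_RNA and processed pseudogenes, and 3 were not matched. Proximal to Tmem106b lay 46 genes and distal to it 39. A further 55 rows of the window fell at or below the filter and were not tested, 10 of them protein coding. These included Vwde, which starts at 13185613 and lies nearer to Tmem106b than any tested distal gene, Ppp1r3a, the transcription factor gene Tfec and the retinal G protein subunit gene Gngt1. The genes just inside the filter were Gm25737 and Gm27402 at 0.05 and Gm26075 at 0.11, and those just outside were Gm9835 at -0.01, Gm6578 at -0.02 and Gm28008 at -0.05. Gm25737 and Gm26075 had the same value in many brains, such as -0.29 in KO brain 2 and -0.55 in WT brain 10. Values this near the filter may therefore not be measured levels. Of the 85, 36 overlapped another row of the table on the genome, and the use of strand in the counting is not stated in the labels, so reads of overlapping pairs may not be separable.

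Levels of the flanking genes reached from the filter up to 9.25 for Capza2, which encodes an actin-capping subunit. Dync1i1, a dynein intermediate chain of neurons, followed at 8.83, and Kcnd2, the A-type potassium channel Kv4.2, at 8.67 log2 RPKM. The mean was above 2 for 68 genes and at or below 2 for 17. The spread between brains of 1 genotype depended on level. For the 54 genes with a mean above 4, the median within-genotype SD was 0.09, the same as over all 15022 genes at that level. For the 31 lower genes it was 0.44, against 0.52 over all genes of that range. Library medians lay between 2.82 and 2.91. The lower quartile of all values was between -0.41 and -0.07 in females and between -1.20 and -0.29 in males. It lies below the filter, so it describes rows that were not tested. Library means over the 17 tested genes at or below 2 averaged 0.95 in females and 0.80 in males (SD 0.16 and 0.18). Over the 68 higher genes they averaged 5.83 in both sexes. The cause of these differences between the sexes was not tested. Genotypes were balanced over both sexes.

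Of the 85 genes, Thsd7a alone passed the test between KO and WT brains. It encodes a membrane protein with thrombospondin type 1 repeats, studied in endothelial migration and as a kidney autoantigen. The gene (ENSMUSG00000032625) lies at chr6:12311610-12749410 on the minus strand, 320 kb proximal to Tmem106b. No other gene above the filter lies closer on either side. Its span overlaps the rows Gm16123 (mean -1.90) and n-R5s160 (mean -0.26), both below the filter. The log2 RPKM of Thsd7a in the 10 WT brains was 5.94 at the lowest, 6.09 at the median and 6.18 at the highest. In HET brains it was 5.94, 6.0 and 6.14, and in KO brains 5.79, 5.85 and 5.99. Every KO brain was below the WT mean and 8 of 10 were below all WT brains, while KO and WT still overlapped at their edges and nearly all HET brains lay within the WT range.

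Group means of Thsd7a were 6.08 ± 0.07 in WT, 6.01 ± 0.06 in HET and 5.88 ± 0.07 in KO (SD, n = 10 each). The KO minus WT difference was -0.20 ± 0.03 (SE) on the log2 scale, with a 95% interval of -0.27 to -0.14 and an adjusted p of 0.000623 (limma, Benjamini-Hochberg over 23695 genes). The KO level was therefore 86.9% of the WT level, with an interval of 83.1% to 90.9%. The HET minus WT difference was -0.07 ± 0.03 (adjusted p = 0.768) and KO minus HET was -0.13 ± 0.03 (adjusted p = 0.128), neither past the threshold of 0.05 in the limma fit. A straight line over 0, 1 and 2 targeted copies fell by 0.10 ± 0.02 (SE) on the log2 scale per copy (adjusted p = 0.000614, limma). The gene ranked 27 among all genes by p in KO against WT.

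The lower Thsd7a level was present in both cohorts and both sexes as a difference of means. In cohort 1 the means were 6.07 in WT, 6.0 in HET and 5.91 in KO, and in cohort 2 they were 6.10, 6.02 and 5.83. Females had 6.10, 6.02 and 5.89, and males 6.06, 5.99 and 5.86. Neither the cohort term (adjusted p = 0.666) nor the sex term (adjusted p = 0.979) of the limma fit showed a difference in the genotype effect. The call held in cohort 1 alone (-0.16, adjusted p = 0.0338) and not in the smaller sets of cohort 2 alone (-0.27, adjusted p = 0.639), females alone (-0.21, adjusted p = 0.224) or males alone (-0.19, adjusted p = 0.165). Leaving out each of the 30 brains in turn gave -0.22 to -0.19 and adjusted p-values of 0.000294 to 0.00275.

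Markers of some cell types moved with genotype in the same brains. Of 12 oligodendrocyte markers, all above the filter, 11 fell in KO, with a median of -0.28 on the log2 scale, and their summed level (log2) lay between 13.36 and 13.57 in WT and between 13.14 and 13.37 in KO. None of the 6 oligodendrocyte precursor markers was called, 4 had differences below 0 and their median was -0.09. Of 6 endothelial markers 1, the receptor gene Tek, fell and 5 had differences below 0, with a median of -0.16. The summed endothelial level (log2) was 9.88 to 10.17 in WT, 9.78 to 10.16 in HET and 9.61 to 10.21 in KO. Of 6 choroid plexus markers none was called by limma, all 6 had differences below 0 and the median was -0.18. Their summed level (log2) did not fall at the median, with 12.86 in WT (12.27 to 13.05) and 12.88 in KO (12.09 to 12.93). Of 6 astrocyte and 6 microglia markers, 1 each rose, with medians of 0.00 and -0.02. The part of these in the Thsd7a result was not tested. In bulk tissue, fewer cells of a type and less RNA per cell cannot be told apart. The 6 neuronal markers were at 9.03 to 12.06 for single genes, none of them called. Among the 5 striatal neuron markers above the filter none was called, with a median of -0.000676. Liver and skeletal muscle genes, 3 each, were looked up as a check for absent tissues. Alb, Cyp3a11 and the muscle gene Myh4 fell below the filter. The liver gene Apoa1 was above it at 1.39, and so were 2 muscle genes, Acta1 and Ckm, the higher of them at 5.61.

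**Figure D1:**
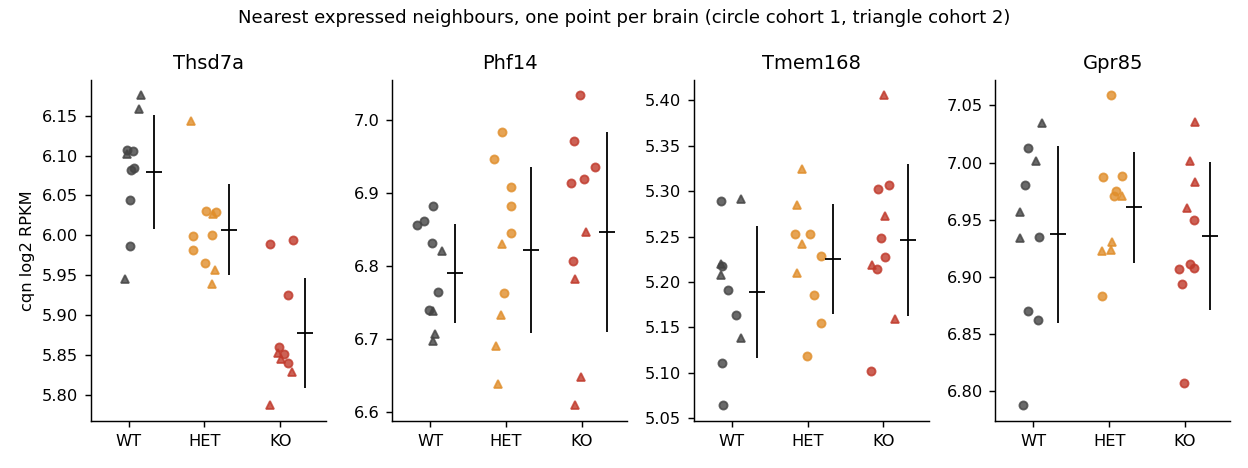
Levels (cqn log2 RPKM, vertical axis, each panel on its own scale) of Thsd7a, Phf14, Tmem168 and Gpr85 in the 10 WT, 10 HET and 10 KO brains. Circles are cohort 1 and triangles cohort 2, with the mean and SD at the right of each group. The KO points of Thsd7a lie between 5.79 and 5.99 and overlap the WT points only at their edges. The other 3 genes overlap more widely across genotypes.

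The other genes nearest to Tmem106b did not pass the test. Phf14, which encodes a PHD finger chromatin protein, starts at 11907809 and ends 989 kb proximal to Tmem106b. Its levels were 6.70, 6.79 and 6.88 (lowest, median, highest) in WT, 6.64, 6.84 and 6.98 in HET and 6.61, 6.88 and 7.03 in KO. The KO values spread to both sides of the WT range. The difference was 0.06, with an interval of -0.01 to 0.13 (adjusted p = 0.556, limma). The next on that side were Nxph1, a secreted ligand of neurexins, 3.82 Mb away with -0.08 (-0.14 to -0.01, adjusted p = 0.313, limma), and Ica1, a membrane-bending protein of secretory granules, 4.29 Mb away with 0.07 (0.01 to 0.13, adjusted p = 0.352, limma).

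On the distal side, Tmem168, a multi-pass membrane protein gene 491 kb away, had levels of 5.06, 5.20 and 5.29 in WT, 5.12, 5.23 and 5.32 in HET and 5.10, 5.24 and 5.41 in KO brains. The 3 groups overlapped almost completely, and the difference was 0.06 (-0.02 to 0.13, adjusted p = 0.568, limma). The gene B630005N14Rik, 536 kb away, differed by 0.02 (-0.06 to 0.10). Gpr85, an orphan receptor gene of neurons 745 kb away, had 6.79, 6.95 and 7.03 in WT and 6.81, 6.93 and 7.04 in KO brains, a difference of 0.00 to 2 decimals with an interval of -0.06 to 0.06. The closest distal row above the filter, the small nuclear RNA Gm25737 at 460 kb, was at the filter limit and differed by 0.03 (-0.37 to 0.43). Differences beyond the stated intervals were thus not detected at Tmem168, B630005N14Rik or Gpr85.

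Counts by genotype over the whole set were close to those of all genes. In KO against WT, 1 of 85 genes passed and was lower, against 1% of all genes tested, 0.279% higher and 0.722% lower. The count behind that 1% was 237 genes, and it was 138 without WT brain 4 and 388 without KO brain 10. Of the remaining 1027 tested genes on chromosome 6, 6 passed, the nearest being Gpr37, an orphan receptor gene of oligodendrocytes, 12.6 Mb distal. At an unadjusted p under 0.05, 13 of 85 passed (6 higher, 7 lower), against 12% of all genes (6.11% higher, 5.9% lower). The 13 were Ccdc132, Gng11, Gm26814, Pdk4, Gm9825, Rpa3, Ica1, Nxph1, Thsd7a, Mdfic, Cftr, Gm26719 and Cped1. No gene of the set had KO and WT brains that did not overlap, against 0.0717% of all genes. With Tac1, the precursor gene of substance P, counted again, 2 of 88 window genes other than Tmem106b passed. Tac1, 5.50 Mb proximal, had 6.98 ± 0.13 in WT and 7.19 ± 0.14 in KO (SD, n = 10 each), a difference of 0.22 ± 0.05 (SE, adjusted p = 0.0251, limma), and Col1a2 and Ndufa4 were not called at -0.04 and -0.01.

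The HET and KO comparisons with WT share the 10 WT brains and are given side by side only. In HET against WT none of the 85 passed the limma test and 5 had an unadjusted p under 0.05, where 0.00422% of all genes passed and 6.32% were under the unadjusted threshold. The 1 gene called among all was Tmem106b itself (-0.59, adjusted p = 9.62e-15, limma). In KO against HET none passed and 8 were under the unadjusted threshold, against 0.118% and 8.66% of all genes. The slope over copies called 1 gene, Thsd7a, and 13 at an unadjusted p, against 1.02% and 12% of all genes. Genotype means followed copy number, rising or descending, in 41 of 85 genes, against 37.4% of all genes, and 17 of 85 descended from WT through HET to KO, against 17%.

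Apart from Thsd7a, no gene within 2 Mb of Tmem106b was called. The median absolute difference, with Thsd7a included, was no larger there than farther away, over few near genes. Within 2 Mb lay 9 genes, of which 1 was called and 1 was under the unadjusted threshold, with a median absolute KO minus WT difference of 0.03 on the log2 scale. From 2 to 5 Mb there were 25 genes, none called and 4 under the unadjusted threshold, with a median absolute difference of 0.07, and beyond 5 Mb 51 genes, none called and 8 under it, with 0.06. Over all 85 the median difference was 0.01 and its absolute value 0.06, against 0.01 and 0.05 over all genes tested. Among genes with a mean above 4, the median absolute difference was 0.05 for 54 flanking genes and 0.04 for all. By distance it was 0.03 for 7 such genes within 2 Mb, 0.05 for 15 from 2 to 5 Mb and 0.04 for 32 beyond 5 Mb. Across the 85 genes the absolute difference had a Spearman rho of -0.05 with distance and of -0.44 with mean level, a description over genes that share the same brains. Proximal genes gave 1 call and 9 under the unadjusted threshold of 46, and distal genes 0 calls and 4 of 39 in the limma fit.

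**Figure D2:**
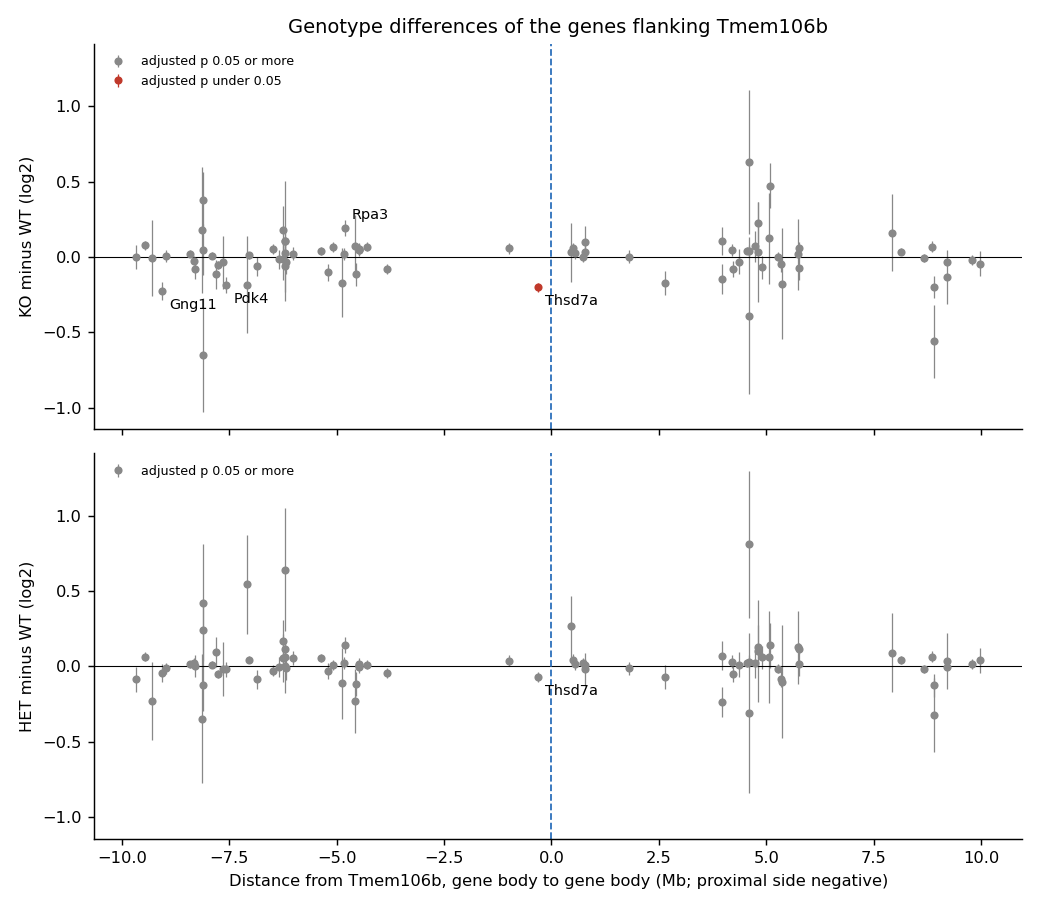
Difference in log2 level from WT (vertical axis, bars are SE) of the 85 genes against distance from Tmem106b (Mb, negative is proximal, dashed line at the gene), for KO in the upper panel and HET in the lower. The only red point, past the adjusted threshold, is Thsd7a at -0.20 in KO, and the wide bars belong to genes of low level.

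The largest differences among genes with a mean above 2 that were not called lay far from Tmem106b. Gng11, a gamma subunit of heterotrimeric G proteins 9.06 Mb proximal, had 7.16, 7.39 and 7.52 in WT, 7.10, 7.35 and 7.42 in HET and 6.68, 7.18 and 7.55 in KO. KO values spread more widely than WT values, with 5 of 10 below all WT brains and 1 above them. The difference was -0.22 ± 0.06 (SE, adjusted p = 0.0567, limma). The endothelial sums given above belong beside this value too, and their part in it was not tested.

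Pdk4, a kinase that inhibits pyruvate dehydrogenase, 7.57 Mb proximal, had 5.29, 5.50 and 5.71 in WT, 5.36, 5.49 and 5.72 in HET and 5.12, 5.34 and 5.58 in KO. WT and HET matched closely and 5 of 10 KO brains lay below all WT. The difference was -0.19 ± 0.05 (adjusted p = 0.0797, limma). Rpa3, a subunit of the single-strand DNA binding complex RPA, 4.81 Mb proximal, had 5.23, 5.51 and 5.78 in WT, 5.50, 5.66 and 5.77 in HET and 5.55, 5.67 and 5.99 in KO. Each KO brain was above the WT mean, with 3 above all WT brains. The difference was 0.19 ± 0.05 (adjusted p = 0.0676, limma).

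Cped1, a gene of a cadherin-like domain protein 8.90 Mb distal that overlaps Gm26719, had 3.06, 3.38 and 3.52 in WT, 2.89, 3.25 and 3.51 in HET and 2.92, 3.16 and 3.40 in KO, a difference of -0.20 ± 0.07 (adjusted p = 0.227, limma). The small RNA rows Gm27444, inside St7, and Gm27699, inside Dlx6os1, differed by 0.22 and 0.18, and both had SDs of 0.28 or more in every group. The 3 genes Gng11, Pdk4 and Rpa3, and Ccdc132, a gene of endosome trafficking, passed within cohort 1 alone (-0.30, -0.28, 0.28 and 0.13, adjusted p = 0.0241, 0.0262, 0.0214 and 0.0487, limma). In cohort 2 alone Gng11, Pdk4 and Rpa3 had -0.13, -0.03 and 0.07. Ccdc132 had means of 6.59 in WT and 6.72 in KO of cohort 1, and of 6.68 and 6.67 in cohort 2. The test of the difference between cohorts did not pass for Gng11, Pdk4, Rpa3 or Ccdc132 (adjusted p = 0.666, 0.510, 0.510 and 0.440, limma).

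**Figure D3:**
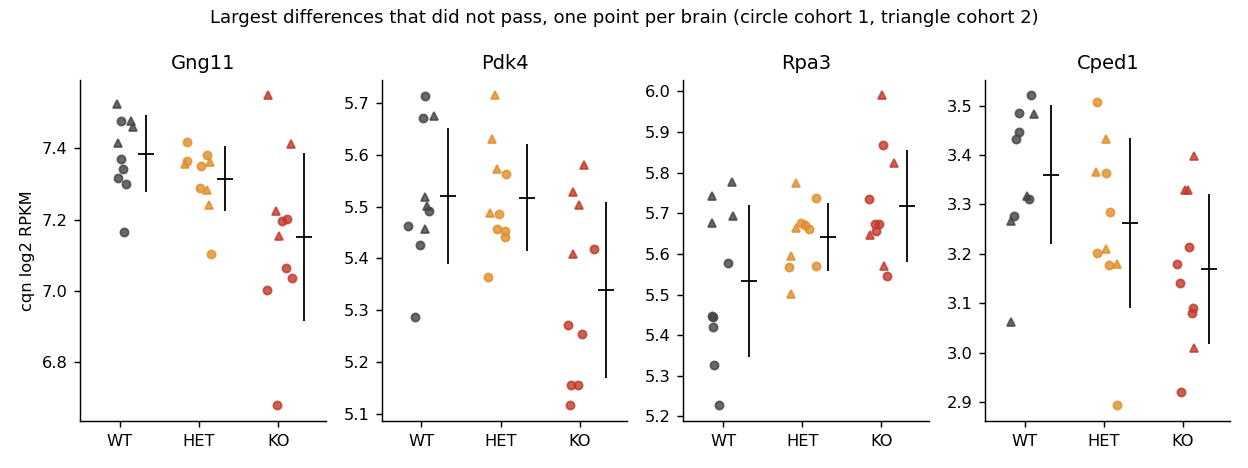
Levels (cqn log2 RPKM, vertical axis, each panel on its own scale) of Gng11, Pdk4, Rpa3 and Cped1 in the 10 brains of each genotype, circles cohort 1, triangles cohort 2, with mean and SD at the right. Groups overlap in every panel. Fitted within each cohort alone, the KO minus WT difference was smaller in size in cohort 2 than in cohort 1 for every gene shown. For Rpa3 it was 0.28 in cohort 1 and 0.07 in cohort 2, and for Cped1 -0.30 and -0.03.

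The neighbours were also grouped, mostly by what they are known for, in 4 lists that overlap. The imprinted domain contributed 10 expressed genes, with Tfpi2 and Pon1 below the filter. None was called, 1 (Pdk4) was under the unadjusted threshold, 8 had fitted KO minus WT differences below 0 and the median was -0.03. Over all genes tested, 53.3% of the differences were above 0, 12% were under the unadjusted threshold and the median was 0.01. Peg10, a retrotransposon-derived gene, had 6.53, 6.74 and 6.88 in WT, 6.53, 6.71 and 7.03 in HET and 6.29, 6.69 and 6.95 in KO, a difference of -0.08 (adjusted p = 0.726, limma). KO values reached lower and higher than WT ones. Sgce, epsilon-sarcoglycan, differed by -0.03, Casd1, a sialic acid acetyltransferase, by 0.02, Ppp1r9a, the actin-binding neurabin, by 0.01, and Pon2, a lactonase, by -0.05.

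The list named neuronal and synaptic had 12 rows, counting 2 rows named Dlx6os1, with Gngt1 below the filter. It also holds Cftr, which is not chiefly known as a neuronal gene. None of the 12 rows was called in the limma fit and 3 were under the unadjusted threshold (Ica1, Nxph1 and Cftr). Differences were above 0 in 10 rows, and the median was 0.02. Dync1i1 differed by 0.01, Kcnd2 by 0.04 and Cttnbp2, a cortactin-binding synaptic protein, by 0.00, each with an SE of 0.03 or less. Foxp2, a transcription factor of striatal and cortical neurons, 1.81 Mb distal, had 5.01 ± 0.11 in WT and 5.01 ± 0.07 in KO (SD, n = 10 each). The chloride channel gene Cftr, at a mean level of 1.74, had the largest value of the list, 0.47 ± 0.15 (adjusted p = 0.139, limma), with 6 of 10 KO brains above all WT brains. Cftr overlaps 2 other rows on the genome.

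Among 12 genes of glia, vessels and signalling, with Tfec below the filter, 1 was called (Thsd7a, lower), 2 were under the unadjusted threshold (Thsd7a and Mdfic), 10 had differences below 0 and the median was -0.03. Ptprz1, a receptor phosphatase of glia, differed by -0.02, the secreted protein gene Fam3c by -0.04 and the tetraspanin gene Tspan12 by -0.01. The caveolae genes Cav1 and Cav2 differed by -0.08 and 0.05. Cav1 had 5.97, 6.05 and 6.14 in WT and 5.59, 6.01 and 6.20 in KO, so KO brains lay on both sides of the WT range. Metabolism and housekeeping gave 16 genes, none called by limma, 2 under the unadjusted threshold (Pdk4 and Rpa3), 11 with differences above 0 and a median of 0.03. Capza2 differed by 0.04, Asns, asparagine synthetase, by 0.04, Shfm1, a proteasome and BRCA2 partner, by 0.05, and the splicing factor gene Lsm8 by 0.06.

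**Figure D4:**
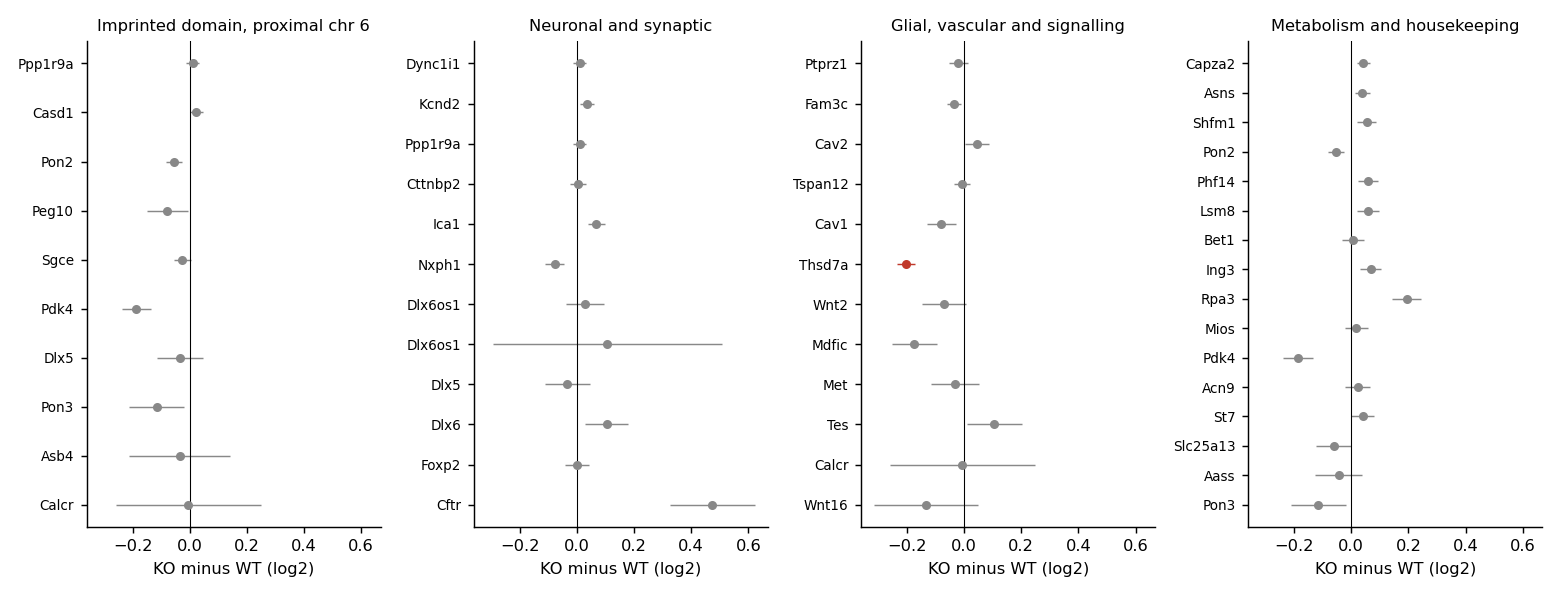
KO minus WT difference (log2, horizontal axis, bars are SE) of the expressed genes in the 4 role lists, ordered by mean level with the highest at the top. Thsd7a in red is the only one past the adjusted threshold, and Cftr and the second Dlx6os1 row have the widest bars in the neuronal list.

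More of these genes differed between cohorts than between genotypes. Of 85 genes 20 differed between cohort 2 and cohort 1 (12 higher, 8 lower; limma with genotype, sex and RIN in the fit), against 17.5% of all genes (8.09% higher, 9.42% lower). Among genes with a mean above 4 the counts were 19 of 54, or 35.2%, against 23.8% of all such genes. By role, 2 of 10 imprinted, 3 of 12 neuronal, 3 of 12 glial and vascular, and 8 of 16 metabolic genes passed. The genes named for cohort were chosen after their values were seen. Gm26736, a transcript inside Ppp1r9a, rose from 2.50 ± 0.40 in cohort 1 to 3.47 ± 0.35 in cohort 2 (SD, n = 18 and 12), with a fitted difference of 1.00 (adjusted p = 4.14e-05, limma). Phf14, the second nearest proximal gene, fell from 6.88 ± 0.08 to 6.73 ± 0.08 (adjusted p = 0.00151, limma), Dync1i1 from 8.87 to 8.76, and Shfm1 rose from 8.04 to 8.17. Gng11, Pdk4, Rpa3 and Cav1 were also higher in cohort 2, by 0.17, 0.13, 0.15 and 0.15. Thsd7a was not among the 20.

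**Figure D5:**
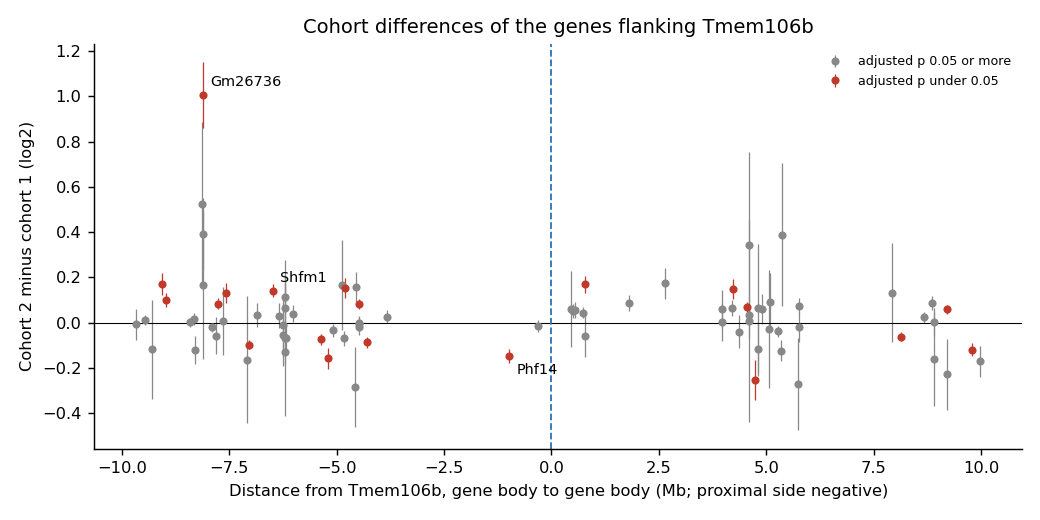
Cohort 2 minus cohort 1 (log2, vertical axis, bars are SE) of the 85 genes against distance from Tmem106b (Mb, negative is proximal). The 20 red points past the adjusted threshold lie on both sides and at all distances, with Gm26736 highest at 1.00.

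Sex and the interactions gave no calls. Between males and females none of the 85 passed the limma test and 10 were under the unadjusted threshold, against 0.333% and 12.5% of all genes. The genotype effect differed between cohorts for none of the 85 in the limma fit, with 8 under the unadjusted threshold, against 0.0338% and 8.53% of all genes. It differed between sexes for none, with 5 under the unadjusted threshold, where 0% of all genes passed and 7.1% were under it. RNA integrity (RIN) was alike over genotypes, with means of 9.40 in WT, 9.23 in HET and 9.35 in KO.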

How the data were processed

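RNA-seq of the cerebral hemispheres of 30 mice was analysed from 1 table of gene values. Per the submitters' processing notes, reads were aligned to mm10 with TopHat2 2.0.12 and Bowtie 1.1.0; no label or header used here names the counting tool or annotation. The values the authors deposited are log2 RPKM after conditional quantile normalisation, per the file's name and header, and depth per brain is unknown because no counts come with them, so no counting interval was made and precision rests on the 10 brains per genotype. The values were used as deposited, with no pseudocount. Genes with a mean above 0 were fitted with limma 3.58.1 (R 4.3.3; eBayes with trend, two-sided, Benjamini-Hochberg over 23695 genes) on genotype, sex, cohort and RIN over all 30 brains, and "called" means an adjusted p under 0.05. The script was tested on simulated data.

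Genotypes come from the labels. Replicate numbers follow sample order. The members and gene lists were chosen with earlier results of these data known. Genes named are those called between genotypes, the 4 nearest on each side, the 6 largest differences not called with a mean above 2, and up to 6 genes of highest level per role list. Other genes named were chosen after their values were seen: the 13 under the unadjusted threshold, the genes named for cohort, Ccdc132, Foxp2 and Cftr. Distances are gaps between gene bodies. Alternatives changed covariates, filter, variance model, scaling and the brains included.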

Additional observations from a re-analysis of the deposited data

Results flagged for a closer look

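In 93 groups of 10 brains (31 named genes by 3 genotypes), 5 brains stood far from the other 9 of their group by Dixon's gap test, and chance flags about 1 in 20 groups. Thsd7a in HET brain 2 was 6.14, with the nearest other HET brain at 6.03. Gm27699 in the same HET brain was 6.20, with the nearest at 5.66. Cav2, a caveolin gene, was lowest in HET brain 9 at 7.11, with the nearest at 7.26. Capza2 was highest in KO brain 4 at 9.41, with the nearest at 9.29. Gm25737, at the filter limit, was lowest in WT brain 10 at -0.55, with the nearest at -0.21. Gm26075 had the same value of -0.55 in that brain, so this flag is not particular to Gm25737.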

How the results depend on the processing

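In 11 alternatives and 30 fits without 1 brain each, HET against WT and KO against HET stayed at 0 calls among the 85 genes. KO against WT gave 5 calls in cohort 1 alone and 0 in cohort 2, females or males alone, and 1 in each of the 7 others. The slope per copy gave 4 calls in cohort 1 alone and 0 in cohort 2, females or males alone. Those smaller fits called 482, 4, 13 and 15 genes of the whole table in KO against WT, where the full fit called 237, genotype alone 144, only the 2 genotypes 114, and the fits without WT brain 4 and KO brain 10 called 138 and 388. Leaving out 1 brain gave 1 to 3 calls in KO against WT and 1 to 4 for the slope. There were 3 calls without KO brain 4 (Thsd7a, Gng11, Pdk4) or WT brain 1 (Thsd7a, Pdk4, Rpa3), and 2 without KO brain 7 (Gng11 added), KO brain 9 or WT brain 9 (Rpa3 added). The slope called 4 without WT brain 1 and 2 without WT brain 8. With no filter on low values, 4 genes were called between males and females, where 9087 of the whole table were, and the cause was not tested. The cohort count ranged from 16 to 20 and the interactions stayed at 0 in 4 alternatives.

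Differences that were not called and changed sign were Gm25737 (-0.16 in cohort 1), Phf14 (-0.00846 in cohort 2), B630005N14Rik (-0.00525 in cohort 2, -0.0186 in females), Gpr85 (0.0142 in cohort 2, 0.0308 in males) and Gm27699 (-0.0211 in males). Leaving out 1 brain moved Gpr85 between -0.0192 and 0.0110 and Gm25737 between -0.0211 and 0.0618. Gm25737 has no value with a filter at a mean above 1. No paired analysis was possible because the replicate numbers were given in sample order and pair nothing.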
